A study of Mus musculus with 4 samples.

Results

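The livers of mice kept for 24 weeks on a diet and toxin regimen that causes metabolic dysfunction-associated steatohepatitis (MASH) were compared, cell by cell, with the livers of chow-fed mice of the same duration. Members were all cells of the 2 libraries with at least 500 unique molecular identifiers (UMIs, counts of captured RNA molecules) in genes, at least 300 genes and at most 15% mitochondrial UMIs. These were 27291 chow cells and 19953 MASH cells, 47244 of the 82905 cells that passed in all 4 libraries of the series; the other 35661 cells belong to the same pair of diets at 12 weeks. There is 1 library per diet, so no test between diets is possible and no p-value is given.

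Both groups were male C57BL/6J mice aged 8 weeks at the start. Chow mice ate standard chow. MASH mice received the regimen labelled FAT-MASH: a Western diet (21.1% fat, 41% sucrose, 1.25% cholesterol), drinking water with 23.1 g/L fructose and 18.9 g/L glucose, and weekly low-dose carbon tetrachloride (CCl4) into the peritoneum. CCl4 is a hepatotoxin activated by pericentral cytochrome P450. Diet, sugar water and toxin were given together, so their effects cannot be told apart. After storage on ice overnight, livers were digested with collagenase IV and DNase I. Non-parenchymal cells were enriched between 25% and 70% Percoll and freed of red cells before 10x Genomics 5′ sequencing. The enrichment removes most hepatocytes, and it can set cell shares.

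In the healthy liver, fenestrated sinusoidal endothelial cells and resident macrophages (Kupffer cells) line the blood spaces, stellate cells store vitamin A, and hepatocytes divide metabolic work between periportal and pericentral zones. In steatohepatitis, hepatocytes load lipid, monocyte-derived macrophages accumulate, stellate cells deposit collagen, bile duct-like cells expand (the ductular reaction) and T cells with inhibitory receptors such as PD-1 gather. Liver natural killer (NK) cells circulate and carry Ly49 receptors and granzymes, while type 1 innate lymphoid cells (ILC1) are resident relatives with less cytotoxic equipment.

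The median depth was 2356 UMIs and 1079 genes per cell in chow and 3464 UMIs and 1399 genes in MASH, with a median mitochondrial share of 3.10% in both. The libraries shared 732 cell barcodes (2.68% of chow and 3.67% of MASH cells), beside a product of cell numbers over kit size of 739. Each library carried 8 antibody hashtags, and 64.5% of chow and 72.5% of MASH cells had a single dominant one. What a hashtag marks is not in the labels, so values per hashtag show spread inside a library and are not replicates. Chow hashtags 1 to 4 and 5 to 8 stood apart: neutrophil-like cells were 1.29% to 2.08% of cells in the former and 13.3% to 14.7% in the latter. Share ratios that turn on this split are given against both chow sets, with only single-hashtag cells counted on either side. Gene ratios against a chow set keep all MASH cells of the class, hashtagged or not. The MASH hashtags split likewise in 2 myeloid shares: monocyte-like cells were 6.72% to 7.87% in hashtags 1 to 4 and 4.13% to 5.50% in 5 to 8, and macrophage-like cells 4.10% to 4.81% and 6.20% to 8.34%. Removal of predicted doublets took 23.8% of chow and 10.6% of MASH cells from all class comparisons, which left 20783 and 17832 cells. It took 55.5% of the chow and 30.5% of the MASH cells that carried several hashtags. Such cells still made up 13.5% of the kept chow and 19.4% of the kept MASH cells.

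The cell mixture differed most in its non-lymphoid part. Macrophage-like, stellate- or fibroblast-like and cholangiocyte-like cells were nearly missing from the chow library and formed clear populations in MASH, and monocyte-like and conventional dendritic cell (cDC)-like cells took larger shares. The cholangiocyte-like class leaves out a chow cluster with trefoil factor genes, described below. T-like cells took a smaller share of the MASH library, and B-like cells one that was smaller than in chow hashtags 1 to 4 but not 5 to 8. Clusters were named from 16 sets of marker genes, and the clustering left out every gene of the lists described here. The chow share came to 0.159% (33 cells) for macrophage-like cells, against 6.67% (1190 cells) in MASH. That is a ratio of 42.0 (29.8 to 61.3); all intervals here are exact 95% binomial ones and cover counting error only. Over the hashtags the macrophage-like share ran from 0% through 0.169% to 0.273% in chow and from 4.10% through 5.50% to 8.34% in MASH, without overlap. The ratio was 24.9 without doublet removal. Under coarser clustering (resolution 0.5) no separate monocyte-like class formed, and the class that kept the macrophage name (740 chow and 3049 MASH cells) had a ratio of 4.80.

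Monocyte-like cells, the circulating precursors of many liver macrophages, ranged from 1.13% through 1.80% to 2.32% over the chow hashtags and from 4.13% through 6.11% to 7.87% over the MASH hashtags. These ranges stayed apart, with a pooled ratio of 3.89 (3.45 to 4.38). cDC-like cells, which present antigen to T cells, ranged from 0.894% through 1.74% to 2.19% and from 3.57% through 4.22% to 4.71%, a pooled ratio of 2.57 (2.27 to 2.92). Cholangiocyte-like cells, the lining of bile ducts, numbered 3 in chow and 567 in MASH (220, 75.0 to 1071). Without doublet removal a cluster led by the duct genes Spp1 and Clu held 54 chow and 724 MASH cells, but carried hepatocyte markers too and was not named. Stellate- or fibroblast-like cells, the collagen producers, numbered 8 and 131 (19.1, 9.41 to 45.1), a ratio of 3.52 without doublet removal. A cluster with trefoil factor and mucosal genes held 44 chow cells and 0 MASH cells, whose exact 95% interval reaches a MASH share of 0.0207%. Its best-scoring marker set was that of cholangiocytes, with 9 markers detected and Krt19 among its leading genes. It was named apart by a rule set after the clusters were seen, and the cholangiocyte-like counts leave it out.

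Lymphocyte shares differed less. B-like cells were 35.9% of chow and 28.7% of MASH cells (0.799, 0.771 to 0.828), and T-like cells 23.7% and 20.5% (0.864, 0.828 to 0.902); hashtag ranges overlapped for both. The B ratio was 0.698 against chow hashtags 1 to 4 and 1.01 (0.962 to 1.07) against 5 to 8, whose 29.6% to 31.7% lay inside the MASH range of 27.1% to 34.8%. The T ratio was 0.934 and 0.755 against these sets. NK- or ILC1-like cells were 5.80% and 6.43% (1.11, 1.02 to 1.20), with 0.914 and 1.59 against the sets. Plasmacytoid dendritic cell (pDC)-like cells were 2.04% and 2.13% (1.05, 0.909 to 1.20), with 1.33 and 0.789. The neutrophil ratio of 1.19 (1.11 to 1.28) depended on the chow set: 4.59 against hashtags 1 to 4 and 0.572 against hashtags 5 to 8. Endothelial-like cells were 4.51% and 3.10% (0.687, 0.617 to 0.764), with 0.945 against chow hashtags 1 to 4 and 0.4998 against 5 to 8. Without doublet removal the ratio was 1.07, but there the class was 1 cluster (549 and 430 cells) led by Rspo3, Jam2 and Plvap. A cluster led by the sinusoidal genes Stab2, Kdr and Clec4g (1348 and 404 cells) was then mixed with T markers and stayed out. Hepatocyte-like cells had a ratio of 0.374 (0.341 to 0.409), with 0.361 and 0.996 against those sets, and 63.4% of chow and 42.1% of MASH cells of this class carried no hashtag.

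**Figure D1:**
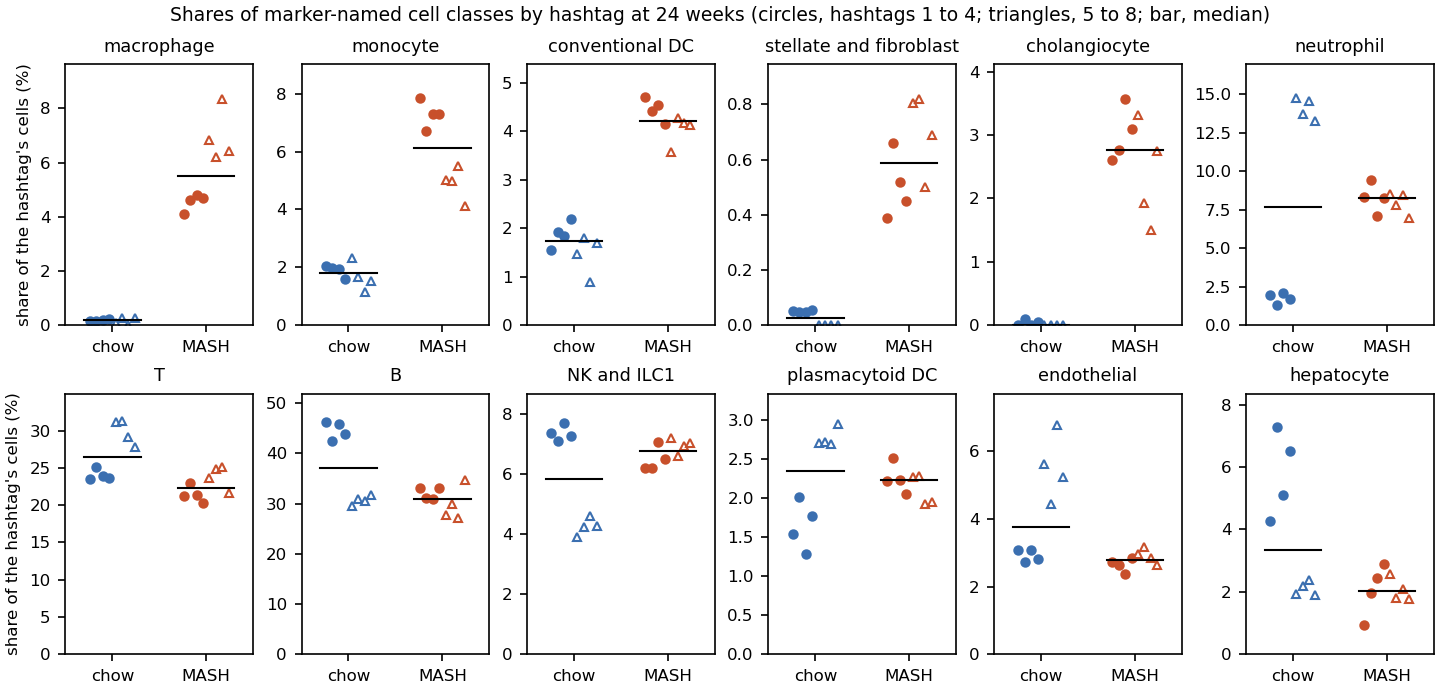
Share of kept cells (%, linear axes from 0) of 12 cell classes for each antibody hashtag of the chow and MASH libraries at 24 weeks; circles are hashtags 1 to 4, triangles hashtags 5 to 8, and the bar is the median of the 8. Macrophage-like cells reach at most 0.273% over the chow hashtags and at least 4.10% over the MASH hashtags, while the chow neutrophil share splits into 1.29% to 2.08% and 13.3% to 14.7%.

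Because leading genes of some clusters differ with diet (Gpnmb, Trem2 and Ms4a7 for macrophages; Spp1, Mmp7, Sox9 and Clu for cholangiocytes), marker sets were also summed over all cells, doublets included. The macrophage set stood at 517 CPM (UMIs scaled to the same library total) in chow and 4662 CPM in MASH, a ratio of 9.03, with hashtags at 398 to 674 and 3222 to 6061 CPM. Of the chow UMIs of C1qa, a complement gene of macrophages, 61.6% lay in cells removed as doublets and 29.1% in macrophage-like cells, against 83.9% in macrophage-like cells of MASH. The stellate set had a ratio of 3.89 (13.3 to 53.3 and 107 to 319 CPM) and the cholangiocyte set 2.88 (46.8 to 208 and 317 to 559 CPM). These ratios are smaller than those of the cell shares. The neutrophil set stood at 7166 and 7173 CPM, and the T, B and endothelial sets had ratios of 0.688, 0.645 and 0.635. The monocyte set had a ratio of 1.70. The Kupffer set stood at 35.7 CPM in chow and 74.3 CPM in MASH, a ratio of 2.08, and no separate Kupffer class was named. The cDC set stood at 329 CPM in chow and 309 CPM in MASH (0.940, with overlapping hashtags), against the share ratio of 2.57. The NK and ILC1 set had a ratio of 0.825, the pDC set 0.705 and the hepatocyte set 0.758.

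Summed over all cells, the MASH library carried far more RNA of genes for macrophages, scar and bile ducts, and less of several liver-enzyme and urinary-protein genes. Of 18355 genes compared (at least 20 UMIs over both libraries), 2418 (13.2%) were called higher and 754 (4.11%) lower; a call needs a ratio of at least 2 or at most 0.5 and an interval that leaves out 1. Of all genes, 7.35% were called and had hashtag ranges that did not overlap. Such a level mixes the share of cells with the RNA per cell, which cannot be told apart: with MASH class levels weighted by the chow class makeup, 1066 genes were higher and 420 lower.

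Saa3 (ENSMUSG00000040026, GRCm38 chromosome 7 from 46711998 to 46715700, minus strand), an acute-phase serum amyloid, had the largest called ratio by the naming rule. It ranged from 0 through a median of 0.598 to 1.96 CPM over the chow hashtags and from 141 through 463 to 546 CPM over the MASH hashtags. For Saa3 the ranges were apart, and the pooled ratio was 319 (265 to 387). In the MASH library 78.7% of its UMIs lay in stellate- or fibroblast-like cells. At 12 weeks the same ratio was 3613. Msmp, which encodes a small secreted protein, was at 0.653 CPM in chow and 22.7 CPM in MASH, a ratio of 34.7 (26.9 to 45.6), with 84.8% of its MASH UMIs in cholangiocyte-like cells.

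Macrophage genes filled the rest of the high end. Cd5l, a lipoprotein-binding product of tissue macrophages, was at 0.0871 CPM in chow and 26.0 CPM in MASH, a ratio of 298 (151 to 691), and the 8 chow UMIs were spread over several classes. Trem2, a lipid-sensing receptor, ranged from 1.19 through a median of 2.09 to 2.70 CPM over the chow hashtags and from 58.9 through 95.4 to 127 CPM over the MASH hashtags, again without overlap. C1qb, a subunit of complement C1q, was at 9.20 CPM in chow and 433 CPM in MASH, a ratio of 47.1 (44.0 to 50.4). Mmp12 (ratio 53.1), Ms4a7 (42.4), C1qa (40.6), C1qc (38.8) and Lpl, lipoprotein lipase (28.6), completed the 10.

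At the low end stood genes of hepatocytes. Serpina1e, an alpha-1 antitrypsin paralog, was at 341 CPM in chow and 2.61 CPM in MASH, a ratio of 0.00765 (0.00677 to 0.00861), and at 12 weeks the ratio was 0.00830. Hal, the first enzyme of histidine breakdown, had a ratio of 0.151, Selenbp2, a selenium-binding protein, 0.0894, and Sult2a8, a sulfotransferase, 0.186. The major urinary protein genes Mup3 (0.154) and Mup7 (30.4 CPM in chow and 0.142 CPM in MASH) belong to a family of near-identical copies, so their separate values are uncertain. Dmbt1, a mucosal scavenger receptor, had 20251 chow UMIs and 1 MASH UMI (ratio 4.28e-05, 1.08e-06 to 0.000239), and 73.4% of the chow UMIs lay in the trefoil cluster. Tff3, a trefoil peptide, was at 27.1 CPM in chow and 0.293 CPM in MASH. Both depended on the chow set: Dmbt1 stood at 286 CPM in chow hashtags 1 to 4 and 22.2 CPM in 5 to 8, and Tff3 at 43.5 and 1.52 CPM. Il4, the cytokine interleukin 4 (39.9 CPM in chow and 5.31 CPM in MASH), and Atp8a2, a phospholipid flippase (0.149), were lower too.

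Gene lists were read by role. Of the fibrosis list, 15 of 23 compared members were higher and 1 lower (median log2 ratio 1.87, against 0.05 over all genes), 4 of them with hashtags apart. Timp1, an inhibitor of matrix breakdown, ranged from 0 through a median of 0.416 to 0.785 CPM over the chow hashtags and from 4.43 through 13.8 to 53.2 CPM over the MASH hashtags. For Timp1 every MASH hashtag lay above every chow hashtag, and the pooled ratio was 26.8 (20.8 to 35.0). Loxl1, a collagen cross-linker, had a ratio of 11.9, Col6a1 8.70 and Col1a1 4.64. Of the quiescent stellate list 5 of 11 were higher, led by Rgs5, a mural-cell signalling regulator, at 2.30 CPM in chow and 31.4 CPM in MASH, a ratio of 13.6 (11.9 to 15.8).

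Of the ductular reaction list, 13 of 17 were higher and 0 lower (median 1.85). Spp1, osteopontin, was at 85.7 CPM in chow and 2063 CPM in MASH, a ratio of 24.1 (23.5 to 24.6); Cldn4, a tight-junction claudin, had a ratio of 20.2, Clu, clusterin, 6.21, and Sox9, the duct transcription factor, was at 4.13 CPM in chow and 53.8 CPM in MASH. Of the lipid- and scar-associated macrophage list 16 of 20 were higher and 0 lower, and 8 were higher with the chow class makeup. Of the Kupffer list 6 of 11 were higher, among them Folr2, folate receptor beta (0.0653 CPM in chow and 7.06 CPM in MASH).

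Growth-factor genes of the scar followed. Of 13 TGF-beta and PDGF ligands and receptors compared, 5 were higher and 0 lower. Pdgfc, a ligand of PDGF receptor alpha, was at 0.849 CPM in chow and 12.1 CPM in MASH, a ratio of 14.2 (11.3 to 18.1). Tgfb3 had a ratio of 3.97, Tgfb2 3.78, Pdgfa 3.18 and the receptor Pdgfra 14.9, the last with overlapping hashtags. Of the plasminogen system, the receptor and clearance protein Lrp1 (5.09) and vitronectin, Vtn (6.60), were higher with hashtags apart. Tnfsf13, the B-cell survival factor APRIL, was at 6.82 CPM in chow and 30.2 CPM in MASH, a ratio of 4.44 (4.07 to 4.84).

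Soluble signals of inflammation came next. Of 21 cytokines and chemokines compared, 9 were higher and 0 lower, with Ccl7 at 7.96, Il10 at 7.51, Ccl9 at 4.14, the monocyte attractant Ccl2 at 3.34 and Cxcl16 at 3.27. No member of the interferon gamma response list (14 compared) or the MHC class I list (11 compared) was called over all cells. Of the periportal hepatocyte list 8 of 14 were lower and 0 higher (median −1.20). Gls2, glutaminase, had a ratio of 0.211 and Ass1 of the urea cycle 0.370; within hepatocyte-like cells this list was less one-sided, as given further on.

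T-like cells (4935 chow, 3658 MASH) of the MASH library carried more RNA of inhibitory receptors and of regulatory T-cell genes and Il17a. They carried less of the cytokine gene Il4 and of the ligand gene Cd40lg, while naive-cell and interferon genes were not called. Of 12591 genes compared, 618 (4.91%) were higher, 273 (2.17%) lower and 1.27% called with hashtags apart. Macrophage markers inside the class summed to 46.3 CPM in chow (36.1 to 53.7 over hashtags) and 215 CPM in MASH (163 to 233), with 8 of 8 compared markers higher and 1 of 10 at 0 in chow; their part in the results was not tested. Genes whose level was under 10% of that in another class are called open to RNA of other cells.

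The inhibitory receptors come first. Pdcd1 (ENSMUSG00000026285, GRCm38 chromosome 1 from 94038305 to 94052553, minus strand) encodes PD-1, the receptor blocked in checkpoint therapy. It ranged from 3.21 through a median of 4.11 to 8.05 CPM over the chow hashtags and from 21.0 through 47.6 to 66.2 CPM over the MASH hashtags. Every MASH hashtag lay above every chow hashtag for Pdcd1, and the pooled ratio was 8.22 (6.49 to 10.5), beside 3.74 at 12 weeks. Within MASH it lay at 21.0 to 42.6 CPM in hashtags 1 to 4 and 52.6 to 66.2 CPM in 5 to 8. Tigit (ENSMUSG00000071552, GRCm38 chromosome 16 from 43648867 to 43664146, minus strand), a receptor for nectin-like ligands, ranged from 7.54 through a median of 12.5 to 25.8 CPM over the chow hashtags and from 49.5 through 76.1 to 119 CPM over the MASH hashtags. Ctla4, which competes with CD28 for B7 ligands, had hashtag minimum, median and maximum of 9.40, 15.3 and 36.3 CPM in chow and 48.1, 65.4 and 84.9 CPM in MASH. Both were apart between diets, with pooled ratios of 5.32 (4.59 to 6.19) and 3.77 (3.29 to 4.34).

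Of the residency and exhaustion list, 7 of 13 members were higher and 1 was lower, and 7 of these 8 had hashtags apart (median 1.01, against 0.02 over all genes). Tox, a transcription factor of chronically stimulated T cells, was at 32.9 CPM in chow and 84.0 CPM in MASH, a ratio of 2.55 (2.29 to 2.84). Lag3 (4.21) and Havcr2, which encodes TIM-3 (6.99), were open to RNA of pDC-like and cDC-like cells. Cd160, a receptor of cytotoxic and innate-like T cells, was lower at 187 CPM in chow and 82.3 CPM in MASH, a ratio of 0.441 (0.410 to 0.473), a call that was lost against chow hashtags 5 to 8.

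Of the cytotoxicity list, 2 of 14 were higher and 0 lower. The class joins 3 clusters: the one led by Cd8b1 and Cd8a held 765 of 4935 chow and 895 of 3658 MASH T-like cells, the one led by Trbv13-2 and Cxcr6, with Cd40lg and Cd160 among its leading genes, 2375 and 1524, and the one led by Lef1 1795 and 1239. Levels of all genes in the class mix this makeup with the RNA per cell, among them Gzmk, Eomes, Cd40lg, Cd160, Pdcd1, Tigit, Tox, Il4 and Zbtb16. Gzmk, a granzyme of memory-like CD8 T cells, ranged from 11.8 through a median of 22.6 to 31.1 CPM over the chow hashtags and from 68.5 through 122 to 174 CPM over the MASH hashtags. Eomes, a transcription factor of effector and memory CD8 T cells, ranged from 6.23 through a median of 11.2 to 24.1 CPM over the chow hashtags and from 33.6 through 50.1 to 74.2 CPM over the MASH hashtags. Neither gene overlapped between diets, with pooled ratios of 5.47 (4.84 to 6.21) and 4.36 (3.70 to 5.17).

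Helper and regulatory genes went both ways, with 6 of 15 higher and 3 lower. Foxp3, the master factor of regulatory T cells, ranged from 0.754 through a median of 5.54 to 19.2 CPM over the chow hashtags and from 31.1 through 38.4 to 56.9 CPM over the MASH hashtags. All MASH hashtags of Foxp3 lay above the chow ones, and the pooled ratio was 5.54 (4.52 to 6.84). Ikzf2, which encodes Helios of regulatory T cells, was at 48.3 CPM in chow and 129.7 CPM in MASH, a ratio of 2.68 (2.46 to 2.94). Il17a, the cytokine interleukin 17A, was at 2.61 CPM in chow and 14.0 CPM in MASH, a ratio of 5.37 (3.77 to 7.83). Il10 had 1 chow and 50 MASH UMIs (ratio 54.9, 9.40 to 2209).

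Cd40lg, the ligand by which helper T cells license B cells and dendritic cells, ranged from 87.9 through a median of 144 to 180.3 CPM over the chow hashtags and from 45.7 through 51.0 to 61.8 CPM over the MASH hashtags. Here every MASH hashtag lay below every chow hashtag, with a pooled ratio of 0.370 (0.338 to 0.404). Il4 ranged from 49.6 through a median of 101 to 181 CPM over the chow hashtags and from 9.68 through 17.1 to 25.0 CPM over the MASH hashtags, with 53.7 CPM in chow hashtags 1 to 4 and 154 CPM in hashtags 5 to 8. Its pooled ratio was 0.165 (0.143 to 0.190), and both chow sets lay above the MASH range. Zbtb16, the PLZF factor of innate-like T cells, was at 45.9 CPM in chow and 11.9 CPM in MASH, a ratio of 0.259 (0.217 to 0.309), a call lost against chow hashtags 1 to 4.

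Among genes outside the lists, Rgs16, a brake on chemokine receptor signalling, ranged from 1.34 through a median of 3.89 to 7.88 CPM over the chow hashtags and from 21.7 through 33.6 to 46.5 CPM over the MASH hashtags. Tnfrsf4, the costimulatory receptor OX40, was at 9.82 CPM in chow and 77.0 CPM in MASH, a ratio of 7.84 (6.58 to 9.41), and Krt83, a keratin gene, had a ratio of 6.25. Dtx1, encoding the Notch-pathway ubiquitin ligase Deltex 1 (ENSMUSG00000029603, GRCm38 chromosome 5 from 120680202 to 120711927, minus strand), ranged from 141 through a median of 168 to 193 CPM over the chow hashtags and from 18.0 through 31.6 to 39.8 CPM over the MASH hashtags. For Dtx1 no MASH hashtag reached the chow range, and the pooled ratio was 0.186 (0.167 to 0.207). Atp8a2 was at 64.7 CPM in chow and 14.1 CPM in MASH, a ratio of 0.218 (0.185 to 0.255). Ighg2b, an antibody heavy-chain gene of plasma cells, had 1203 chow UMIs and 1 MASH UMI in this class (ratio 0.000912, 2.31e-05 to 0.00509). Its chow hashtags ran from 9.31 through a median of 14.1 to 340.3 CPM, and the part of plasma-cell RNA was not tested.

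No member was called of the naive list (10 compared), the type I interferon list (13), the interferon gamma list (14), the MHC class I list (11), the cell cycle list (16) or the list of immediate early and heat shock genes (15). Of cholesterol genes, 3 of 14 were lower, among them the synthesis enzymes Sqle (0.391) and Idi1 (0.425). Both calls were lost without doublet removal.

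NK- or ILC1-like cells (1205 and 1147) of the MASH library had less RNA of granzyme A, perforin and Ly49 receptors and more of the inhibitory receptor Tigit. Receptors shared by all such cells were not called: Ncr1, encoding NKp46, stood at 600.0 CPM in chow and 588 CPM in MASH and Klrk1, encoding NKG2D, at 624 CPM in chow and 619.5 CPM in MASH. Of 10486 genes compared, 269 (2.57%) were higher, 258 (2.46%) lower and 0.763% called with hashtags apart. B markers in the class summed to 207 CPM in chow and 85.9 CPM in MASH, with 8 of 10 lower, and macrophage markers to 37.3 and 227 CPM, with 7 of 7 higher.

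Gzma (ENSMUSG00000023132, GRCm38 chromosome 13 from 113093825 to 113100981, minus strand), granzyme A of cytotoxic granules, ranged from 8062 through a median of 8399 to 9398 CPM over the chow hashtags and from 1129 through 2009 to 3443 CPM over the MASH hashtags. The lowest chow hashtag exceeded the highest MASH hashtag for Gzma more than 2-fold, and the pooled ratio was 0.256 (0.251 to 0.262). Prf1, perforin, ranged from 442 through a median of 513 to 597 CPM over the chow hashtags and from 122 through 183 to 329 CPM over the MASH hashtags, also apart. Pooled Prf1 had a ratio of 0.395 (0.364 to 0.429). Of the cytotoxicity list, 5 of 14 members were lower with hashtags apart and 1 was higher (median −0.88, against −0.01 over all genes).

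The other lower members were Klrg1, a marker of mature NK cells (130.3 CPM in chow and 43.0 CPM in MASH), the chemokine Ccl3 (1673 CPM in chow and 726 CPM in MASH) and Gzmb, granzyme B (885 CPM in chow and 431 CPM in MASH). The Gzmb call was lost without doublet removal, in single-hashtag cells and against chow hashtags 1 to 4. Gzmk was higher at 5.20 CPM in chow and 14.8 CPM in MASH, a ratio of 2.85 (1.66 to 5.16). With chow hashtags 5 to 8 alone, 8 members of the list were lower.

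Of the receptor and effector list, 6 of 16 were lower and 1 higher, all with hashtags apart (median −0.10). Klra9, Klra8 and Klra4 encode Ly49 receptors for MHC class I and had ratios of 0.276, 0.338 and 0.346; the Klra genes are similar copies, so reads may be split between them. Klra9 ranged from 182 through a median of 349 to 432 CPM over the chow hashtags and from 41.2 through 84.7 to 139.6 CPM over the MASH hashtags. Itgam, the integrin CD11b of mature NK cells, was at 128 CPM in chow and 42.2 CPM in MASH, a ratio of 0.329 (0.277 to 0.390), and Zeb2, a factor of NK maturation, at 201 CPM in chow and 75.4 CPM in MASH, a ratio of 0.375 (0.329 to 0.427). Cd200r1, an inhibitory receptor found on ILC1, was higher at 36.7 CPM in chow and 95.1 CPM in MASH, a ratio of 2.59 (2.12 to 3.19).

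Other ILC1-type genes were not called: Itga1, the integrin CD49a (107 CPM in chow and 124 CPM in MASH), Cxcr6, a liver-homing receptor (172 CPM in chow and 301 CPM in MASH), and Tnfsf10, encoding TRAIL (75.3 CPM in chow and 142 CPM in MASH). Eomes of the NK lineage, at 125 CPM in chow and 67.1 CPM in MASH, was not called either. Cxcr6 and Tnfsf10 were thus higher and Eomes lower in MASH, each by less than the 2-fold that a call needs. NK cells and ILC1 were not separated and formed a single cluster. Levels of all genes in this class mix their makeup with the RNA per cell. Tigit ranged from 11.5 through a median of 37.2 to 70.6 CPM over the chow hashtags and from 104 through 122 to 150.3 CPM over the MASH hashtags. Its MASH hashtags all lay above the chow ones, and the pooled ratio in this class was 4.09 (3.31 to 5.11). Pdcd1 (7.07) and Ctla4 (5.02) were called with overlapping hashtags.

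Genes outside the lists topped the class by the naming rule. Jaml, a junctional adhesion molecule, was at 25.4 CPM in chow and 138 CPM in MASH, a ratio of 5.42 (4.31 to 6.90), Dscam, a cell-adhesion protein known from neurons, at 5.20 CPM in chow and 32.9 CPM in MASH, a ratio of 6.33 (3.83 to 11.1), Ccdc184 had a ratio of 5.81 and Pmepa1, a TGF-beta target that dampens that pathway, 5.0. Dtx1 (67.3 CPM in chow and 7.82 CPM in MASH) and Atp8a2 (34.6 CPM in chow and 4.32 CPM in MASH) were lower here as in T-like cells.

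**Figure D2:**
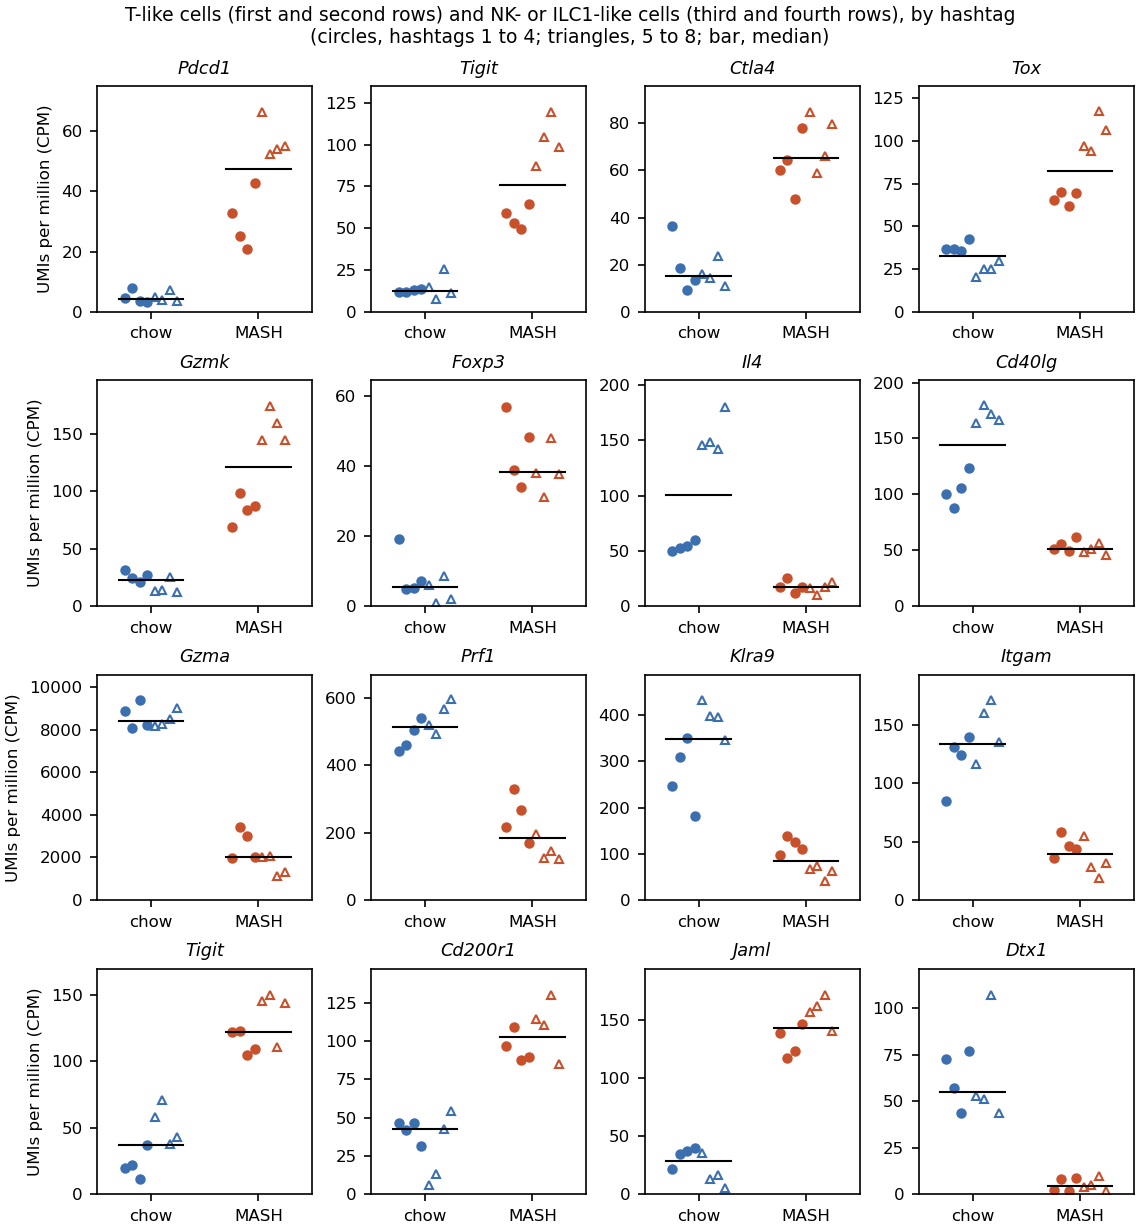
Level of 8 genes in T-like cells (upper rows) and 8 in NK- or ILC1-like cells (lower rows) for each hashtag of the chow and MASH libraries (CPM, linear axes from 0); circles are hashtags 1 to 4, triangles 5 to 8, bars medians. Pdcd1 in T-like cells lies between 3.21 and 8.05 CPM over the chow hashtags and between 21.0 and 66.2 CPM over the MASH hashtags, and Gzma in NK- or ILC1-like cells between 8062 and 9398 against 1129 and 3443 CPM.

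Endothelial-like cells (937 and 552) of the MASH library carried more RNA of endothelin receptor B, of hepatocyte growth factor and of several capillary and vascular genes, while no gene that defines sinusoidal endothelium was called. That list of sinusoidal identity genes was read whole (15 compared, median 0.02, against 0.02 over all genes). Stab2, a scavenger receptor, was at 719 CPM in chow and 843 CPM in MASH, Lyve1, a hyaluronan receptor, at 234 CPM in chow and 393 CPM in MASH, and Clec4g, a sinusoidal lectin, at 1232 CPM in chow and 1252 CPM in MASH. Of 11444 genes compared, 387 (3.38%) were higher, 343 (3.0%) lower and 0.717% called with hashtags apart.

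Ednrb (ENSMUSG00000022122, GRCm38 chromosome 14 from 103814625 to 103844402, minus strand), the receptor by which endothelium responds to endothelins, ranged from 0 through a median of 0 to 24.4 CPM over the chow hashtags and from 443 through 596 to 734 CPM over the MASH hashtags. The lowest MASH hashtag lay far above the highest chow hashtag for Ednrb, and the pooled ratio was 63.4 (44.5 to 93.6), beside 78.9 at 12 weeks. Hgf (ENSMUSG00000028864, GRCm38 chromosome 5 from 16553495 to 16620152, plus strand), the growth factor for hepatocytes, ranged from 0 through a median of 5.42 to 13.2 CPM over the chow hashtags and from 70.5 through 83.0 to 148 CPM over the MASH hashtags. Hgf was apart as well, with a pooled ratio of 10.6 (7.08 to 16.4). Cd34, a sialomucin of capillary endothelium, ranged from 5.30 through a median of 14.8 to 25.7 CPM over the chow hashtags and from 50.2 through 81.5 to 174 CPM over the MASH hashtags. Pooled Cd34 had a ratio of 7.72 (5.51 to 11.1), its hashtags apart.

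Of the capillary and vascular list, 5 of 15 were higher, 3 of them apart, and 0 lower (median 0.39). Ly6a, encoding Sca-1, was at 412 CPM in chow and 1014 CPM in MASH, a ratio of 2.46 (2.31 to 2.62), a call lost without doublet removal, where the class holds other cells as given above. Jam2 and Mcam, junction and adhesion genes of vessels, were called but lost the call under some alternatives. Cdkn2a, encoding the cell cycle inhibitor p16, ranged from 2.19 through a median of 5.94 to 25.7 CPM over the chow hashtags and from 28.5 through 68.7 to 90.2 CPM over the MASH hashtags. Its ranges were apart, with a pooled ratio of 7.0 (4.73 to 10.7). Pi16, a peptidase inhibitor of vascular and fibroblast cells, had a ratio of 10.7, and Cfap69, a flagellar protein gene, had 1 chow and 62 MASH UMIs (ratio 75.7, 13.1 to 3036).

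Of the signals by which sinusoids instruct hepatocytes, Bmp6, the inducer of hepcidin, ranged from 68.9 through a median of 93.6 to 129 CPM over the chow hashtags and from 16.9 through 43.4 to 57.5 CPM over the MASH hashtags. All MASH hashtags of Bmp6 lay below the chow ones, and the pooled ratio was 0.458 (0.368 to 0.566). The zonation signals were not called: Wnt2 stood at 225 CPM in chow and 199 CPM in MASH, Wnt9b at 62.5 CPM in chow and 84.0 CPM in MASH and Rspo3 at 788 CPM in chow and 699 CPM in MASH. Adhesion and chemokine genes were lower against the whole chow library but not against its hashtags 1 to 4. Vcam1, the receptor for leukocyte integrins, was at 284 CPM in chow and 85.4 CPM in MASH, a ratio of 0.301 (0.261 to 0.346), Icam1 had 0.368, Sele 0.133 and Ccl2 0.185; all 4 calls were lost against that set.

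Several lower genes of this class are known from lymphocytes. Dtx1 was at 96.8 CPM in chow and 6.46 CPM in MASH, a ratio of 0.0668 (0.0397 to 0.106), Cd40lg at 62.7 CPM in chow and 7.83 CPM in MASH, a ratio of 0.125 (0.0775 to 0.192) and Il4 at 53.8 CPM in chow and 3.40 CPM in MASH. T markers within the class summed to 2039 CPM in chow and 1428 CPM in MASH (T-like cells: 4649 and 4826 CPM), and the T-cell receptor subunit Cd3e stood at 335 CPM in chow and 233 CPM in MASH, against 831 CPM in chow and 844 CPM in MASH in T-like cells. The part of this T-cell RNA in those 3 genes was not tested. Ntf3, the growth factor neurotrophin 3, had a ratio of 0.0872. Depp1, an autophagy regulator, had 0.233, and 0.668 in the smaller class without doublet removal.

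**Figure D3:**
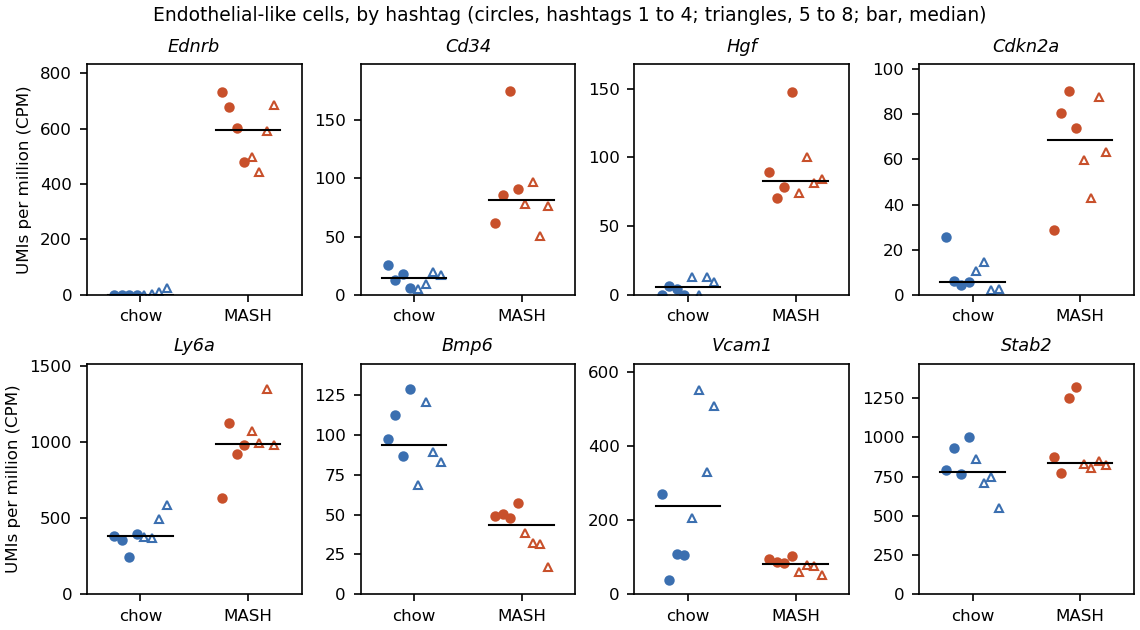
Level of 8 genes in endothelial-like cells for each hashtag of the chow and MASH libraries (CPM, linear axes from 0); circles are hashtags 1 to 4, triangles 5 to 8, bars medians. Ednrb lies between 0 and 24.4 CPM over the chow hashtags and between 443 and 734 CPM over the MASH hashtags, whereas Stab2 overlaps.

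Hepatocyte-like cells (1934 and 620, median 1009 and 1428 UMIs) of the MASH library carried more RNA for fat synthesis and storage, for fatty acid oxidation and for pericentral enzymes. They carried less RNA of urinary proteins, of Serpina1e and of the male steroid enzyme Hsd3b5. The median mitochondrial share of this class was 0.142% in chow and 0.169% in MASH, against 3.10% over all cells of either library. Whether its members are intact hepatocytes was not tested. The median log2 ratio of all 9016 genes compared was 0.21, so list medians are to be read against it. Of these genes 703 (7.80%) were higher, 210 (2.33%) lower and 1.11% called with hashtags apart. Only 7 MASH hashtags held at least 20 such cells.

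Of the lipid synthesis and storage list, 11 of 15 were higher and 0 lower (median 1.36), 2 with hashtags apart, and 5 were higher against chow hashtags 5 to 8. Scd1, the desaturase that makes monounsaturated fat, ranged from 151 through a median of 187 to 205 CPM over the chow hashtags and from 565 through 653 to 854 CPM over the MASH hashtags. For Scd1 the ranges were apart, with a pooled ratio of 2.95 (2.67 to 3.26). Plin2, a lipid droplet coat protein, was at 310.2 CPM in chow and 798 CPM in MASH, a ratio of 2.57 (2.36 to 2.81), a call lost against chow hashtags 5 to 8. Cidec, which fuses lipid droplets, had a ratio of 21.6, Plin5 3.21, Acaca of fatty acid synthesis 3.25 and Fasn 2.44.

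Of the fatty acid oxidation and PPAR alpha list, 8 of 12 were higher and 0 lower, 5 with hashtags apart (median 1.31). Cpt1a, the gate to mitochondrial oxidation, had a ratio of 4.06, Ppara itself 2.54 and the thioesterase Acot1 4.18. Cyp4a10, an omega-hydroxylase, had 2 chow and 43 MASH UMIs (ratio 38.7, 10.1 to 329).

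Zonation genes were read by zone, and the difference between zones was not tested. Of the pericentral list, 7 of 13 were higher and 0 lower (median 1.11). Cyp2e1 (ENSMUSG00000025479, GRCm38 chromosome 7 from 140763739 to 140774987, plus strand), the cytochrome that metabolises ethanol and CCl4, ranged from 15.8 through a median of 74.1 to 135 CPM over the chow hashtags and from 336 through 469 to 867 CPM over the MASH hashtags. Every MASH hashtag of Cyp2e1 lay above the chow ones, and the pooled ratio was 4.17 (3.66 to 4.75). Glul, glutamine synthetase of the innermost pericentral layer, had a ratio of 4.05. Rgn, regucalcin, at 993 CPM in chow and 2148 CPM in MASH, a ratio of 2.16 (2.06 to 2.27), lost its call once the class median was centred.

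Of the periportal list, 1 of 14 was higher and 2 lower (median −0.25). Hal ranged from 816 through a median of 1021 to 1212 CPM over the chow hashtags and from 132 through 270.3 to 788 CPM over the MASH hashtags. Its chow hashtags all lay above the MASH ones, with a pooled ratio of 0.378 (0.344 to 0.414), and the call was lost without doublet removal. Cps1, the entry enzyme of the urea cycle, was the higher member at 2.21, a call lost once centred.

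Gstm3 (ENSMUSG00000004038, GRCm38 chromosome 3 from 107963696 to 107969283, minus strand), a glutathione transferase of the xenobiotic response list, ranged from 66.7 through a median of 91.3 to 168 CPM over the chow hashtags and from 1296 through 2290.4 to 5521 CPM over the MASH hashtags. No chow hashtag of Gstm3 came near the MASH range, and the pooled ratio was 23.4 (20.6 to 26.5). Ccnd1, cyclin D1 of cell cycle entry, ranged from 16.7 through a median of 31.9 to 35.4 CPM over the chow hashtags and from 221 through 308 to 407 CPM over the MASH hashtags. Ccnd1 was apart too, with a pooled ratio of 10.6 (8.34 to 13.6). Of the cell cycle list 7 of 12 were higher, none with hashtags apart, and Cdkn1a, the inhibitor p21, was at 9.71 CPM in chow and 49.9 CPM in MASH, a ratio of 5.14 (3.30 to 8.21).

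Ubd, a ubiquitin-like modifier, had 0 chow and 182 MASH UMIs, at least 109-fold higher against a floor of 3 counts. Rad51b, a DNA repair gene, had 2 and 60 UMIs (ratio 53.9, 14.3 to 456), and Apoa4, an apolipoprotein, had a ratio of 33.7. Nr0b2, the bile acid-induced repressor SHP, was at 55.8 CPM in chow and 150.2 CPM in MASH, a ratio of 2.69 (2.20 to 3.31). Cyp7b1, of the alternative bile acid pathway, had a ratio of 0.154, and Idi1 of cholesterol synthesis was at 359.8 CPM in chow and 107 CPM in MASH, a ratio of 0.296 (0.250 to 0.349).

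Of the acute-phase list, 9 of 16 were higher, including Hp, Saa1, Saa2 and Lcn2, none with hashtags apart, and Hamp, the iron hormone hepcidin, was lower at 0.434 (0.402 to 0.468). No member of the unfolded protein response list (13 compared) or the interferon gamma list (12) was called.

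At the low end Serpina1e ranged from 3899.6 through a median of 5906 to 7282 CPM over the chow hashtags and from 6.61 through 30.5 to 219 CPM over the MASH hashtags. Its chow and MASH hashtags were far apart, with a pooled ratio of 0.0158 (0.0133 to 0.0186). Hsd3b5, a steroid enzyme of male liver, had 350 chow and 0 MASH UMIs, at least 64.9-fold lower. Mup7 was at 524 CPM in chow and 3.12 CPM in MASH, a ratio of 0.00594 (0.00193 to 0.0139), beside 0.743 at 12 weeks. Mup1 had 101 and 0 UMIs, at least 18.7-fold lower, but was not called within either chow set alone. Macrophage markers within the class summed to 749 CPM in chow and 1478 CPM in MASH, with 4 of 6 compared markers higher; their part in these results was not tested.

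**Figure D4:**
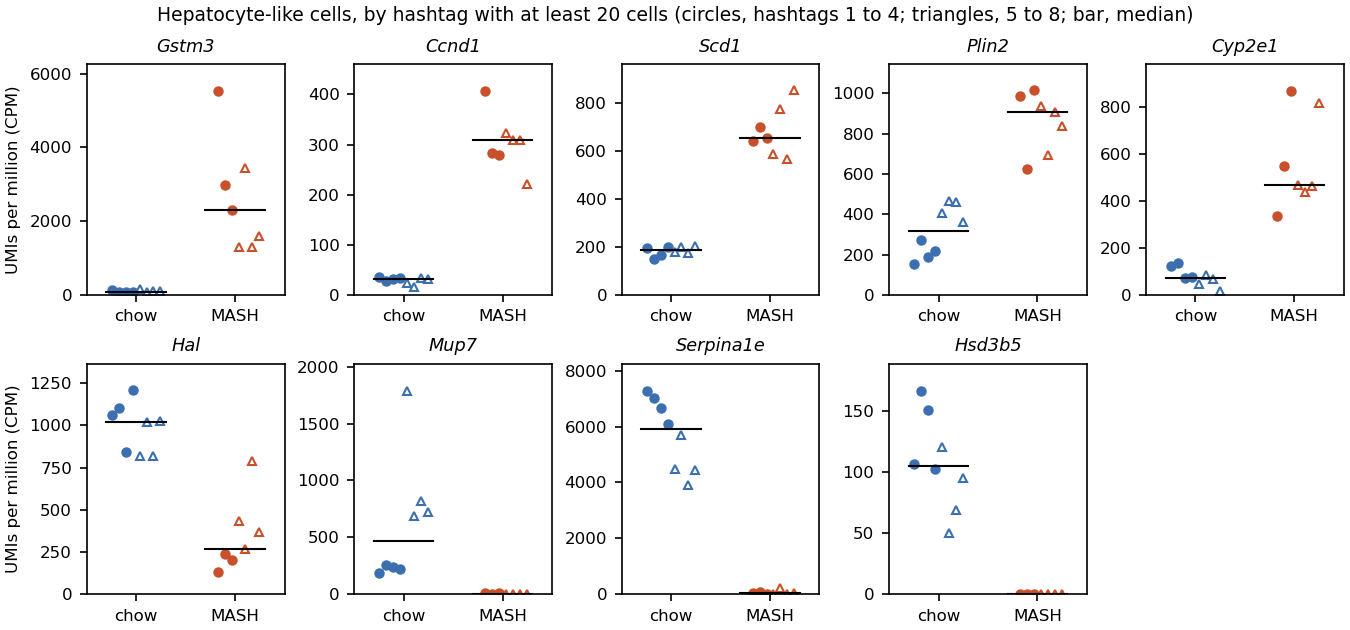
Level of 9 genes in hepatocyte-like cells for each hashtag with at least 20 such cells (CPM, linear axes from 0); circles are hashtags 1 to 4, triangles 5 to 8, bars medians. Gstm3 lies between 66.7 and 168 CPM over the chow hashtags and between 1296 and 5521 CPM over the MASH hashtags, and Serpina1e between 3899.6 and 7282 against 6.61 and 219 CPM.

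Neutrophil-like cells (1439 and 1469) of the MASH library had more RNA of the lectin receptor Clec4n, of granule genes and of some interferon-response genes, and less of the chemokine Ccl6. Of 9451 genes compared, 860 (9.10%) were higher, 202 (2.14%) lower and 0.720% called with hashtags apart, around a median log2 ratio of 0.21. The 1062 calls became 448 against chow hashtags 1 to 4 and 1742 against hashtags 5 to 8.

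Monocyte markers in the class summed to 973 CPM in chow (623 to 1501 over hashtags) and 2408 CPM in MASH (1136 to 3456), with 5 of 8 compared markers higher, a part that was not tested. Clec4n, encoding the fungal receptor dectin 2, was at 21.9 CPM in chow and 191 CPM in MASH, a ratio of 8.73 (6.64 to 11.7), with 4.52 against chow hashtags 1 to 4 and 12.7 against 5 to 8. Hilpda, a hypoxia-induced lipid droplet protein, had a ratio of 7.12, Upp1, uridine phosphorylase, 5.21 and Bcl2a1b, a survival factor with close paralogs, 4.77. Ccl6 ranged from 3736 through a median of 4577 to 5407 CPM over the chow hashtags and from 1654 through 1882 to 2354 CPM over the MASH hashtags. The Ccl6 ranges were apart, with a pooled ratio of 0.353 (0.342 to 0.364). Jaml was lower here at 542 CPM in chow and 179 CPM in MASH, a ratio of 0.330 (0.301 to 0.362), against its higher level in NK- or ILC1-like cells. Slc16a3, a lactate exporter, had a ratio of 0.343, and 0.599 against chow hashtags 1 to 4. Jchain, an antibody component of plasma cells, was at 516 CPM in chow and 3.74 CPM in MASH, but at 47.1 CPM in chow hashtags 1 to 4 and 28.3 CPM in 5 to 8. Its ratio was 0.146 in single-hashtag cells.

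Of the granule and early maturation list, 6 of 12 were higher and 2 lower, none with hashtags apart (median 0.90). The antimicrobial peptide gene Camp was at 5451 CPM in chow and 13864 CPM in MASH, a ratio of 2.54 (2.50 to 2.59), Ngp had a ratio of 3.13, Chil3 3.18 and lactoferrin, Ltf, 3.54, the last lost against chow hashtags 1 to 4. Of the cell cycle list 8 of 16 were higher, none apart, with Mki67 at 5.45. Both lists hold genes of immature neutrophils, and a cluster led by Camp, Ngp and Ltf held 67 of 1439 chow and 242 of 1469 MASH cells of the class. Class levels of these genes mix this makeup with the RNA per cell.

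Monocyte-like cells (361 and 1204) shared the Clec4n difference (11.0 CPM in chow and 55.4 CPM in MASH, ratio 5.03). Of 10897 genes compared, 342 (3.14%) were higher, 153 (1.40%) lower and 0.330% called with hashtags apart. Ms4a6d, a membrane protein of macrophages, was at 75.9 CPM in chow and 189.9 CPM in MASH, a ratio of 2.50 (2.09 to 3.01). Nr1h3, the oxysterol receptor LXR alpha, had a ratio of 3.18 and Axl, a receptor for dying cells, 2.84. Macrophage markers in this class summed to 2919.8 CPM in chow (2439 to 4155 over hashtags) and 4311 CPM in MASH (3739.6 to 5197), with 5 of 10 higher and 1 at 0 in chow; Axl is also among the leading genes of the macrophage-like cluster. Their part in these genes was not tested. Rap1gap2, a regulator of the GTPase Rap1, was lower at 0.406 (0.324 to 0.512). Srm (2.80) came to 1.75 and Ifit3 (2.44) to 1.60 without doublet removal, and the lower calls of Sh2d1b1, Zfhx3 and Csgalnact2 were lost there.

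Macrophage-like cells could be set against only 33 chow cells, so no hashtag range exists and no gene was named by rule. Of 11594 genes compared, 187 (1.61%) were higher and 412 (3.55%) lower. Of the lipid- and scar-associated list, 13 of 20 were higher (median 1.99, and 1.41 with genes at 0 set to their bound). Of the interferon gamma list 8 of 14 and of the type I interferon list 8 of 13 were lower. Monocyte markers in the class summed to 2850 CPM in chow and 1364 CPM in MASH, with 2 of 10 compared markers lower and 1 higher. Their part in the lower calls was not tested. Gdf15, a stress hormone, was at 0 in chow and 71.7 CPM in MASH. Of the Kupffer markers, Clec4f stood at 64.4 CPM in chow and 31.0 CPM in MASH, on 8 chow UMIs, and Cd5l at 0 CPM in chow and 229.9 CPM in MASH.

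Antigen-presenting cDC-like cells (360 and 794) of the MASH library carried more RNA of maturation genes and of Il12b, with 0 of 11 MHC class I and 0 of 10 class II members called. Of 11034 genes compared, 340 (3.08%) were higher, 171 (1.55%) lower and 0.326% called with hashtags apart. Of the maturation and lineage list, 5 of 15 were higher. Il12b, a subunit of interleukin 12, had 4 chow and 338 MASH UMIs (ratio 30.9, 12.0 to 114). Ccr7, the receptor for migration to lymph nodes, was at 82.1 CPM in chow and 272 CPM in MASH, a ratio of 3.32 (2.90 to 3.81), Fscn1, an actin bundler of mature dendritic cells, had 2.58 and Relb 2.53. Fscn1, Ccl22 and Il12b lead a small cluster of mature cells, which held 10 of 360 chow and 119 of 794 MASH cDC-like cells. Class levels of these genes mix this makeup with the RNA per cell.

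Mgl2, a lectin of type 2 cDC, ranged from 0 through a median of 8.75 to 21.7 CPM over the chow hashtags and from 35.8 through 59.4 to 75.9 CPM over the MASH hashtags. For Mgl2 the ranges were apart, with a pooled ratio of 3.93 (2.88 to 5.48). H2-Eb2, a class II gene outside the list, was at 7.24 CPM in chow and 49.9 CPM in MASH, a ratio of 6.89 (4.44 to 11.3), and Il4i1, an amino acid oxidase of mature dendritic cells, at 22.8 CPM in chow and 125 CPM in MASH, a ratio of 5.51 (4.29 to 7.18). Il4i1 is also among the leading genes of the mature cluster, so its class level mixes that makeup with the RNA per cell. F11r, a junction protein, had 5.12 and Tspan3 4.48.

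In pDC-like cells (423 and 380), 131 (1.37%) of 9578 genes compared were higher, 173 (1.81%) lower and 0.125% called with hashtags apart. Sdc3, a heparan sulfate carrier, was at 10.0 CPM in chow and 41.5 CPM in MASH, a ratio of 4.15 (2.61 to 6.89). Mfn2, of mitochondrial fusion, had 2.38, and 1.56 without doublet removal. Rgcc, a cell cycle regulator, was lower at 0.304 (0.207 to 0.439).

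B-like cells (7466 and 5120) were the largest class. Of 12273 genes compared, 227 (1.85%) were higher, 280 (2.28%) lower and 0.489% called with hashtags apart. Il9r, the interleukin 9 receptor, ranged from 10.3 through a median of 16.5 to 26.2 CPM over the chow hashtags and from 40.9 through 51.8 to 74.8 CPM over the MASH hashtags. The Il9r ranges were apart, with a pooled ratio of 3.45 (2.97 to 4.01) and 4.54 at 12 weeks. Fam129c, a B-cell gene, ranged from 63.8 through a median of 79.2 to 94.3 CPM over the chow hashtags and from 24.6 through 35.3 to 40.7 CPM over the MASH hashtags. Its ranges were apart in the other direction, with a pooled ratio of 0.400 (0.359 to 0.444). Myadm, a myeloid-associated membrane gene, had 0.427. Serpina3g had 2.28 and 1.93 against chow hashtags 1 to 4, and the chaperone Dnaja1 0.478 and 0.549.

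No MHC class I or II, type I interferon (12 compared) or unfolded protein response (13) member was called in B-like cells. Antibody genes of plasma cells were higher with overlapping hashtags, and lost their calls without doublet removal: Igha, the IgA constant gene, was at 45.7 CPM in chow and 1492 CPM in MASH, Ighg1 at 2.94 CPM in chow and 335 CPM in MASH and Jchain at 131 CPM in chow and 1549.9 CPM in MASH. Tnfrsf17, the plasma cell receptor BCMA, had 10 chow and 66 MASH UMIs (ratio 7.10, 3.63 to 15.5), also with overlap.

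For the scar- and duct-forming classes the chow side was too small for comparison, so levels are given for MASH. In 131 stellate- or fibroblast-like cells, Sparc, a collagen-binding matrix protein, stood at 2452 CPM, Pdgfra at 133 CPM, the B-cell chemokine Cxcl13 at 205 CPM and Cxcl12 at 86.5 CPM. In 567 cholangiocyte-like cells, Spp1 stood at 22973 CPM, Clu at 22471 CPM, Mmp7, a protease of injured ducts, at 733 CPM, Sox9 at 628 CPM and Vtn at 384 CPM.

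Type I interferon response genes, which block viral replication and are switched on through interferon-stimulated response elements, were followed through the classes. To show that element, windows upstream of 3 members called higher in several classes are printed 5′ to 3′ on the gene's strand from RefSeq sequence (GRCm38.p6), with matches to the element's letters GAAANNGAAA, read on either strand, in capitals. Of 13 list members, 9 had a promoter in the table, and 5 of them (Ifit1, Ifit3, Isg15, Oas1a and Rsad2; 55.6%) held the letters within 250 bases before the start, against 3.46% of 27025 genes. Ifi44, Ifit2, Irf7 and Oasl2 did not hold them in this window; Ifi27l2a, Rtp4, Usp18 and Zbp1 were not matched.
Ifit3, chr19:34583333-34583422, plus strand: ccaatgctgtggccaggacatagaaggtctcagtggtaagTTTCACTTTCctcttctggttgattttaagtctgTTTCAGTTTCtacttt
Oas1a, chr5:120907526-120907585, minus strand: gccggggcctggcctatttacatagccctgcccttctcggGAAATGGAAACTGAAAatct
Rsad2, chr12:26456523-26456612, minus strand: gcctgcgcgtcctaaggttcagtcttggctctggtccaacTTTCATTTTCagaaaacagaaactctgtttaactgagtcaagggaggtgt
The Ifit3 window holds 2 separate matches, that of Oas1a 2 overlapping ones and that of Rsad2 1. A match describes letters only and shows no binding.

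Members were called higher mainly in cDC-like, endothelial-like and neutrophil-like cells. In cDC-like cells 6 of 13 members were higher (median 1.00, all genes 0.00), but 2 against chow hashtags 1 to 4 or without doublet removal and 12 against hashtags 5 to 8. In endothelial-like cells 5 of 13 were higher (median 0.71), in neutrophil-like cells 4 of 12 (0.65, all genes 0.21), in pDC-like cells 2 of 12 (Oas1a and Rsad2, both open to RNA of other cells) and in monocyte-like cells 1 of 13. In NK- or ILC1-like cells 1 of 13 was called, Ifi44 at 2.27 (1.00 to 5.78) with overlapping hashtags, and none in T-like or B-like cells. The medians in T-like, B-like and NK- or ILC1-like cells were 0.11, 0.57 and −0.12. Whether the classes differ from each other was not tested.

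Oas1a, an antiviral RNA sensor, ranged in cDC-like cells from 4.89 through a median of 19.9 to 27.9 CPM over the chow hashtags and from 42.5 through 50.4 to 61.7 CPM over the MASH hashtags. The cDC ranges of Oas1a were apart, with a pooled ratio of 3.20 (2.35 to 4.46). In neutrophil-like cells Oas1a was at 12.4 CPM in chow and 54.2 CPM in MASH, a ratio of 4.38 (3.0 to 6.61), also apart, whereas in T-like cells it was at 21.4 CPM in chow and 26.5 CPM in MASH (ratio 1.24) and in macrophage-like cells at 201 CPM in chow and 85.3 CPM in MASH (0.424). Oasl2 was at 89.3 CPM in chow and 215 CPM in MASH, a ratio of 2.41 (2.08 to 2.81) in neutrophil-like cells.

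Ifit3, a sensor of viral RNA ends, had ratios of 2.68 in endothelial-like, 2.44 in monocyte-like, 1.16 in T-like, 0.666 in NK- or ILC1-like and 0.983 in neutrophil-like cells. Irf7, the factor that amplifies the response, was at 32.9 CPM in chow and 74.2 CPM in MASH, a ratio of 2.25 (1.79 to 2.84) in endothelial-like cells, with hashtags apart. Elsewhere Irf7 had ratios of 1.80 in monocyte-like, 1.36 in T-like and 0.921 in NK- or ILC1-like cells. Rsad2, viperin, had a ratio of 2.38 in endothelial-like cells.

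Dtx1 was the gene named most widely as lower. Its ratio was 0.225 (0.213 to 0.236) over all cells, 0.186 in T-like, 0.116 in NK- or ILC1-like and 0.0668 in endothelial-like cells, each with hashtags apart. In B-like cells it was not called, at 46.2 CPM in chow and 46.0 CPM in MASH (0.996). Atp8a2 had ratios of 0.218, 0.125 and 0.129 in the first 3 classes, the endothelial one with overlap. Endothelial-like cells also carried T markers, at 2039 CPM in chow and 1428 CPM in MASH. The part of that T-cell RNA in the endothelial values of Dtx1 and Atp8a2 was not tested. Whether classes differ was not tested.

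RNA of hepatocyte-secreted proteins outside hepatocytes, which droplets can take up as free RNA, was read as a list. Its median log2 ratio was −0.67 in B-like, −0.68 in NK- or ILC1-like, −1.21 in pDC-like, −0.73 in endothelial-like and 0.05 in T-like cells. The lower members numbered 4 of 12, 4 of 11, 7 of 9, 4 of 12 and 1 of 12 in these classes, and none was higher. They numbered 5 of 12 in neutrophil-like and 4 of 12 in monocyte-like cells, also with none higher. In cDC-like cells 2 of 11 were lower and 1 higher, and in macrophage-like cells 0 of 12 lower and 1 higher. Summed macrophage markers were higher in the other compared classes of MASH, at 197 and 466 CPM in B-like and 269 and 708 CPM in neutrophil-like cells. Their hashtags overlapped in cDC-like (327 and 551 CPM), pDC-like (380 and 534 CPM) and endothelial-like cells (2132 and 2296 CPM). They also overlapped in monocyte-like and hepatocyte-like cells. Genes under 10% of another class's level were therefore not named within a class unless they belong to a list.

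**Figure D5:**
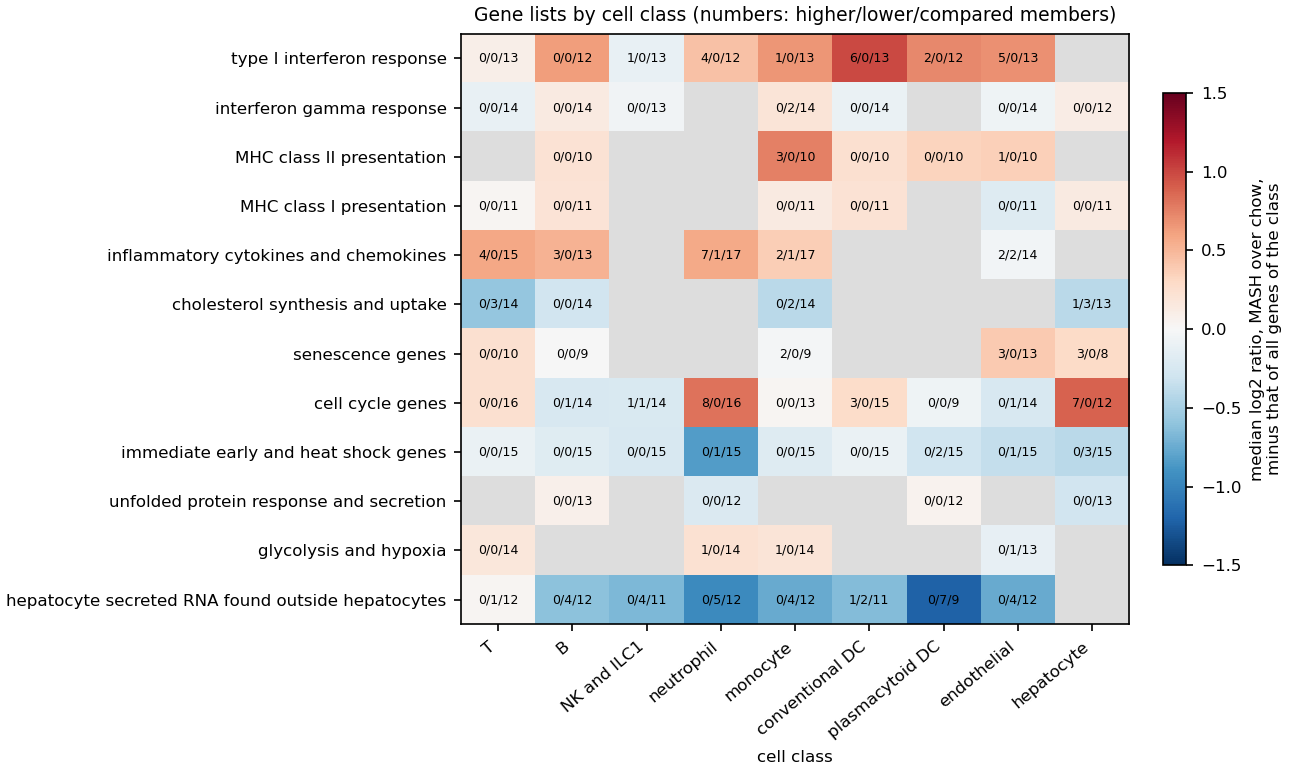
Median log2 ratio (MASH over chow) of 12 gene lists in 9 cell classes after subtraction of the class's median over all genes (colour; genes at 0 on one side set to their bound), with the number of members higher, lower and compared written in each cell and grey where a list is not read. The type I interferon list in cDC-like cells (6 higher, 0 lower of 13) is above the class median, and the list of hepatocyte-secreted RNA in pDC-like cells (0 higher, 7 lower of 9) below it.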

How the data were processed

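Single-cell libraries of liver cells were prepared with the 10x Genomics 5′ chemistry, 1 per diet and week. The deposited values are raw UMI counts per gene and cell. For both 24-week libraries, Cell Ranger 5.0.1 is the software written in the matrix files, per the file headers. As builds, mm10 and GRCh38 are listed in the submitters' processing notes. Each 24-week matrix also holds deposited counts of 8 hashtag antibodies. The 12-week MASH matrix, which enters the 12-week ratios, has a header of Cell Ranger 4 and holds 737280 barcode columns. It was passed through the same cell filter, and the part of this difference in the 12-week ratios was not tested.

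The members and gene lists were chosen with earlier results of these data known. Cells of all 4 libraries were kept at 500 UMIs, 300 genes and 15% mitochondrial UMIs. Cells were assigned to hashtags with Gaussian mixtures, and doublets were removed with Scrublet's automatic threshold (in scanpy 1.11.5). Cells were clustered without integration (Leiden, 2000 variable genes, 30 components, 15 neighbours, resolution 1). Genes of the 43 lists, mitochondrial, ribosomal protein and receptor variable genes stayed out. A cluster needed at least 3 detected markers for a name. The rules for mixed and unnamed clusters and for the trefoil cluster were added after the clusters were seen; 794 chow and 395 MASH mixed cells and 684 and 409 unnamed ones entered no class comparison.

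UMIs were summed per library and class as CPM, and MASH was divided by chow with an exact conditional binomial 95% interval (scipy 1.17.1). Genes with at least 20 UMIs over both libraries were compared. Hashtag ranges use hashtags with at least 20 cells of the class, at least 4 per side.

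Genes were named as follows. Over all cells, the 10 highest and 10 lowest called genes with hashtags apart and at least 20 CPM in the higher library were named, and 4 each way within each class of at least 100 cells per library, without genes open to other cells. Mitochondrial, ribosomal protein, receptor variable, haemoglobin and predicted genes were left out, and some genes are not reported here. Of each list up to 4 called members with the largest change, and uncalled members where a role needed them, were named. Tnfrsf17, Tnfsf13, Pdgfc, Vtn and the MASH levels of stellate and duct genes are list members chosen to show a role.

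Gene positions are from GENCODE M21 (GRCm38). The calling step was checked on simulated counts with known ratios. Alternatives covered the doublet removal, cell filter, hashtag sets, clustering resolution, count minimum, centring and the class makeup.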

Additional observations from a re-analysis of the deposited data

Results flagged for a closer look

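Ighg2b, an antibody heavy-chain gene of plasma cells, went opposite ways in T-like cells at the 2 durations: the MASH over chow ratio was 0.000912 at 24 weeks and 5.10 at 12 weeks. At 12 weeks the levels were 0.616 CPM in chow and 3.14 CPM in MASH. At 24 weeks the pooled chow level was 82.6 CPM, beside a chow hashtag median of 14.1 CPM and a maximum of 340.3 CPM. No plasma cell class was formed, so the gene could not be called open to RNA of plasma cells. The part of such RNA was not tested. The difference between the durations was not tested.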

How the results depend on the processing

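No paired analysis was possible because each diet has 1 library and no result comes from a test between replicates. The 82 named gene and class pairs had been chosen as called with hashtags apart. Settings that keep part of the same hashtags could therefore hardly reverse them, so the lack of reversals is no check of direction. The pairs were not recomputed with other count minimums or with equal weight of hashtags. Under the remaining alternatives, 71 pairs kept their call throughout. Over 562 recomputed values, 547 kept the call, 15 lost it and 0 changed direction. With at least 100 UMIs per gene, 473 genes were lower over all cells, and the calls numbered 335 in T-like, 164 in B-like, 159 in NK- or ILC1-like, 356 in neutrophil-like, 221 in monocyte-like, 152 in cDC-like, 49 in pDC-like, 251 in endothelial-like and 285 in hepatocyte-like cells; fewer genes are compared there. With the chow class makeup 1066 genes were higher and 420 lower. Neutrophil calls (1062) came to 448 with chow hashtags 1 to 4, 1742 with 5 to 8 and 1787 with equal weight of hashtags. Equal weight gave 882 monocyte, 780 cDC, 470 pDC and 1909 hepatocyte calls, beside 495, 511, 304 and 913. Without doublet removal there were 827 monocyte, 557 pDC and 1418 hepatocyte calls, and with no count minimum 461 pDC calls. The cause of these moves was not tested.

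Share ratios moved as well; ratios with a chow hashtag set keep MASH cells without a hashtag unless said otherwise. The macrophage ratio (42.0) was 24.9 without doublet removal and 4.80 at clustering resolution 0.5, where its cluster took the place of the monocyte-like one too; the monocyte ratio was 3.43 in single-hashtag cells; the cDC ratio (2.57) was 3.06 with chow hashtags 5 to 8 and 13.6 at resolution 0.5, where only the 9 chow and 105 MASH cells led by Fscn1 and Ccl22 kept the name. The neutrophil ratio (1.19) was 1.09 in single-hashtag cells, 4.69 with chow hashtags 1 to 4 and 0.585 with 5 to 8. The hepatocyte ratio (0.374) was 0.319 without doublet removal, 0.510 in single-hashtag cells, 0.460 with the stricter filter, 0.601 with chow hashtags 1 to 4 and 1.66 with 5 to 8. The endothelial ratio (0.687) turned to 1.07 without doublet removal, where the sinusoidal cluster was left out, and 1.06 with chow hashtags 1 to 4, and the NK or ILC1 ratio (1.11) to 0.874 with 1 to 4. With single-hashtag cells on both sides the endothelial ratio against 1 to 4 did not turn, as given above. At resolution 0.5 no monocyte-like class and no monocyte or cDC gene counts were obtained, and cholangiocyte shares gave no value without doublet removal or with chow hashtags 5 to 8. With single-hashtag cells on both sides, chosen after seeing the data, the ratios against chow hashtags 1 to 4 were 3.25 (monocyte), 4.59 (neutrophil), 74.7 (cholangiocyte) and 0.914 (NK or ILC1), and against 5 to 8 0.572 (neutrophil), 0.996 (hepatocyte) and 1.01 (B). The number of UMIs of a gene limits how small a ratio its interval can set apart from 1.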
